A study of Homo sapiens with 8 samples.

Results

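The genes described here encode the transcription factor NRF2 and its inhibitor KEAP1, known NRF2 targets, and the enzymes that make, use and regenerate glutathione, thioredoxin and NADPH. They were given as a list of 40 gene symbols, defined by pathway membership and not by a cut on measured values. The list was nevertheless chosen with earlier results of these data known. Of these, 38 were matched to a probe of the array through its accession, and 37 passed the filter on dim probes, of 12348 genes tested in all. OSGIN1 and AKR1C2 were not matched and are not analysed here. CAT, catalase, was not well above background in any channel of any array.

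RNA was compared between H460 cells, an adherent NSCLC line grown in RPMI medium with serum, and cell populations derived from it. H460C cells, which the study calls cancer stem cells (CSCs), were obtained from H460 under nonadherent conditions in serum-free DMEM/F12 medium with N2 supplement, EGF and FGF-b. H460R cells had received cisplatin at 0.5 µg/mL for 72 h and were then cultured without drug, in the same medium as H460. Each population had 2 RNA samples, each hybridized on 2 dual-color arrays with the dyes swapped against H460 RNA, for 8 arrays in all. In H460C, medium, loss of adherence and cell population changed together and cannot be told apart. Every value below is a log2 ratio of the studied cells over H460 unless stated otherwise, and values of 4 arrays are given as replicate 1 with the studied cells in Cy3 and in Cy5, then replicate 2 in the same order.

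NRF2, encoded by NFE2L2, is held low in unstressed cells because KEAP1 passes it to a CUL3 ubiquitin ligase. Oxidants and electrophiles modify KEAP1, and NRF2 then accumulates, pairs with a small MAF protein and binds antioxidant response elements (AREs) near its target genes. Glutathione transferases couple drugs and lipid peroxides to glutathione, peroxidases and peroxiredoxins reduce peroxides, and both systems draw on NADPH. H460 cells are known for a KEAP1 mutation that leaves NRF2 active, so the baseline of every ratio is a line in which this program is already high. These statements are background and were not measured here.

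The start-site windows of 6 members are shown, NQO1 and GPX3 for the largest difference and the largest ratio among the members. The other 4 are examples from the 10 members that hold an ARE core, all named below. The windows run from 250 bases before to 50 bases after a RefSeq transcript start (GRCh38.p14), and capitals mark an ARE core (TGACNNNGC, either strand) or an AP-1 site (TGANTCA, the same on both strands). The letters TGACTCAGC, found in ME1 and GSTP1, hold both motifs.
GCLM, chr1:93909381-93909680, minus strand: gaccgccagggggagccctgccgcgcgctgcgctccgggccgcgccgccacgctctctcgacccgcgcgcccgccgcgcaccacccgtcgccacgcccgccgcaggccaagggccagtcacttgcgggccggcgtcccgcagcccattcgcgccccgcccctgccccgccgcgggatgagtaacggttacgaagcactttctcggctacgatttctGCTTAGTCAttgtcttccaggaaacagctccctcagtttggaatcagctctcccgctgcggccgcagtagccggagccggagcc
ME1, chr6:83431002-83431301, minus strand: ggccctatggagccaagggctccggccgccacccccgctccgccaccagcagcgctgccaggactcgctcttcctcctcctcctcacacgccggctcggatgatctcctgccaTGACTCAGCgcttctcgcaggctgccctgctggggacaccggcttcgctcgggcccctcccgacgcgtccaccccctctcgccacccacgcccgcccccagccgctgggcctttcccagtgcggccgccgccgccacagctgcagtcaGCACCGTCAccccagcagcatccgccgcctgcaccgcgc
GSTP1, chr11:67583562-67583861, plus strand: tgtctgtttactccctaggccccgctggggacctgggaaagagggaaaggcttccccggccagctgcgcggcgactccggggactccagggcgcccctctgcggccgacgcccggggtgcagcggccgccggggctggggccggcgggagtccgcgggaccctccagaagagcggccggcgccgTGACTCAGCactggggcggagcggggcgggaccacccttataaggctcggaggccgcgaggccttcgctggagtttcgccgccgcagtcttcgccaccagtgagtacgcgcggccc
GSTO1, chr10:104254642-104254941, plus strand: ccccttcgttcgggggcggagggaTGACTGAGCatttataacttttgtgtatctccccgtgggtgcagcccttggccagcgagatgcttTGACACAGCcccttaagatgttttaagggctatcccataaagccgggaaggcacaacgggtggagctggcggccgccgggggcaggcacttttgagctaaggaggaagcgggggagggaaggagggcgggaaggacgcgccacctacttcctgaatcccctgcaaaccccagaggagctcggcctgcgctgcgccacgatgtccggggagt
NQO1, chr16:69726511-69726810, minus strand: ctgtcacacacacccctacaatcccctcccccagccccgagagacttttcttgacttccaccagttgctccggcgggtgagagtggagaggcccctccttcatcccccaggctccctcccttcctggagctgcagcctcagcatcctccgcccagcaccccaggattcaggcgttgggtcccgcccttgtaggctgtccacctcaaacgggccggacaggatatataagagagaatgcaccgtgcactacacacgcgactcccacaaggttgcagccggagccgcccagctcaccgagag
GPX3, chr5:151020341-151020640, plus strand: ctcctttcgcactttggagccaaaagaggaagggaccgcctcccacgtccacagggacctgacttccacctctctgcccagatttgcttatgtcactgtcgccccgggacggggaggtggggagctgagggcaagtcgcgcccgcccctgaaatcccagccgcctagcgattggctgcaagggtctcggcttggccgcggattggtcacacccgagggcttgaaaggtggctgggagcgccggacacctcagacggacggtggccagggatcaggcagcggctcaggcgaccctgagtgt

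Of the 40 listed genes, 32 had at least 1 such window, and 10 of these (31.2%) held an ARE core: GCLM, GPX2, GSTA4, GSTO1, GSTP1, KEAP1, ME1, MGST1, PGD and TXNRD1. The core was present in 19.4% of 10041 tested genes with a window and in 16.1% of all 27305 genes of the table. AP-1 sites were found in 3 of the 32 members (9.38%) and in 7.26% of the tested genes. No motif was found in these windows of NQO1 and GPX3, and sequence outside the windows was not searched. The members that hold a core shared no single direction, since GCLM and ME1 had positive ratios in both populations, PGD negative ratios in both, and GSTO1 ratios of opposite sign.

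As a check of the labels, the epithelial markers KRT8, KRT18 and KRT19 were well above background in all 16 channels, and the leukocyte marker PTPRC in none. The epithelial marker CDH1 was so only in the H460C channels, as was the endothelial marker PECAM1. The epithelial marker EPCAM was so in all 4 H460C and 3 of 4 H460R channels. The leukocyte marker CD3E was so in all H460C and H460R channels. Well above background in all channels were also 2 of 5 leukocyte markers (CD14 and CD68), 2 of 4 fibroblast markers (COL3A1 and LUM) and 0 of 4 endothelial markers, and LUM stood at -3.23 in H460C. Of 4 stem cell surface markers named in the study, 3 were well above background in all channels, and PROM1 (CD133) in none. CD24, also named there, was not matched to a probe. By RT-PCR, the study reported more CD133 and less ABCG2 and CD24 in both populations, and less CD44 and CD166 (ALCAM) in H460C. On the arrays, CD44 stood at -0.72, ALCAM at -0.23 and ABCG2 at -0.28 in H460C. In H460R they stood at -0.14, 1.32 and 0.22, so ABCG2 there differed in direction from the RT-PCR. The part of all these markers in the results below was not tested. The difference between the H460C replicates on one dye orientation did not recur on the other (r = -0.01 across 24642 probes), so it was within hybridization noise, whereas it recurred in part in H460R (r = 0.27 across 25745 probes). Probes are not independent replicates. H460C is therefore given as 1 sample without an SD, and H460R as mean ± SD of 2 samples. The sources used here do not say whether the replicates came from separate cultures, so p-values measure only the spread between these samples, which may be technical. Since H460C and H460R were each hybridized on their own slide, the effect of the slide cannot be told apart from that of the cells.

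The members did not move as one block. The secreted peroxidase GPX3 was 4.14-fold over H460 in CSCs and 4.07-fold in resistant cells, and heme oxygenase HMOX1 was 3.78-fold and 2.52-fold over it. NQO1, a classical NRF2 target, stood 2.41-fold below H460 in CSCs and 1.20-fold above it in resistant cells. Rank Products, the test used against H460, called no member in H460C at an FDR of 0.05 and 2 members in H460R, GPX3 as induced and TXNIP as repressed. Over all tested genes it called 0.721% higher and 0.543% lower in H460C, and 0.559% higher and 0.51% lower in H460R. The median ratio of the 37 members was 0.01 in H460C and 0.21 in H460R, against medians of -0.00 and 0.00 over all tested genes. In bulk RNA, fewer cells expressing a gene and less of its RNA per cell cannot be told apart.

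The limma fit, an alternative that draws the variance of each gene toward a value shared over all genes, was less strict against H460. It called 13 members higher and 16 lower in H460C, where 37.5% of all tested genes were called higher and 35.5% lower. In H460R it called 22 higher and 8 lower, where 36% of all tested genes were called higher and 33.6% lower. A call by limma was thus common among all genes, and in H460C it rests on the spread between hybridizations. On every measured array, 10 members were above 0 and 13 below 0 in H460C, against 34.7% and 32.1% of all tested genes. In H460R, 18 members were above 0 and 5 below 0, against 31% and 27.2% of all tested genes.

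H460C and H460R were compared directly by limma, in which the shared H460 RNA cancels. This fit took both H460C ratios as separate samples, although H460C is given here as 1 sample. Its SEs, intervals and adjusted p-values therefore rest in part on the spread between hybridizations, and the p-values may be too small. Of the 37 members, 8 were higher in H460C and 17 were higher in H460R at an adjusted p of 0.05, and 12 did not pass. Of all tested genes, 30.9% were higher in H460C and 29.2% were higher in H460R. The members therefore stood below the background share on the H460C side, with 21.6%, and above it on the H460R side, with 45.9%. The median difference of the members was -0.12, against 0.02 over all genes. The arrays of the populations did not overlap for 16 members, 5 of them higher in H460C and 11 higher in H460R, and over all tested genes the arrays did not overlap for 20.1% and 19.2%. For 6 members that passed, all H460C arrays were below 0 and all H460R arrays above 0, as for 6.92% of all tested genes, and for 0 members the reverse held, as for 5.24% of all tested genes. With median centring in place of loess, 16 members were called, 8 on each side, where 18.1% of all genes were higher in H460C and 15.5% higher in H460R, so that the H460C side then stood above the background share. That setting ended the call of 11 members, AKR1B1, GPX1, GSTM3, GSTM4, GSTO1, GSTP1, KEAP1, PGD, TALDO1, TKT and UGDH. The Cy5 arrays alone ended it for 7, GCLC, GSTM3, GSTM4, HMOX1, TALDO1, TKT and TXN. Aside from the test against a minimum difference of 1, 9 members kept their call under every alternative that tested them: AKR1C1, GPX4, GSS, ME1, MGST1, MGST3, NFE2L2, NQO1 and TXNIP. NQO1 and GSS were not tested on the Cy5 arrays alone, nor TXNIP on the Cy3 arrays alone, since an outlier mark left out an array.

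**Figure D1:**
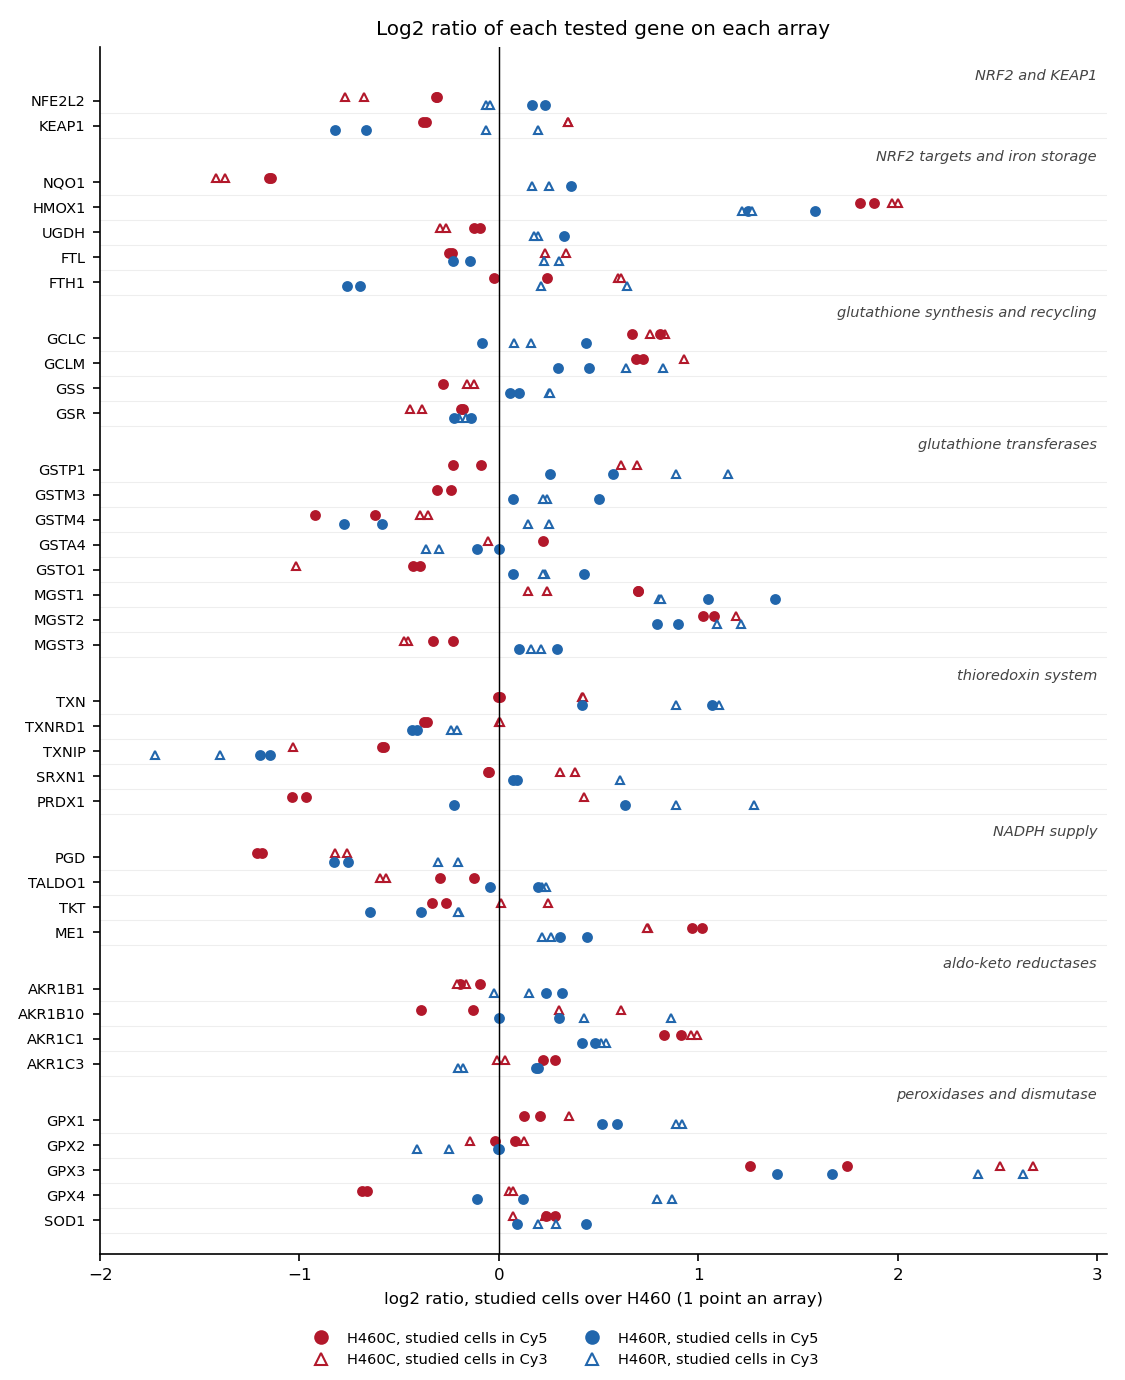
Log2 ratio over H460 (x axis) of each of the 37 tested members (y axis, grouped by role) on each array, in red for H460C and in blue for H460R, with filled circles for arrays with the studied cells in Cy5 and open triangles for Cy3. HMOX1 and GPX3 lie above 1 on all 8 arrays, and the NQO1 arrays of H460C lie between -1.42 and -1.14 while those of H460R lie between 0.17 and 0.36.

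NFE2L2, the gene of NRF2 itself, gave -0.68, -0.32, -0.77 and -0.31 on the H460C arrays and -0.06, 0.23, -0.05 and 0.17 on the H460R arrays. All H460C arrays lay below all H460R arrays, and the difference was -0.59 (SE 0.06, limma adjusted p = 0.000799). KEAP1 gave 0.35, -0.38, 0.35 and -0.36 in H460C, where the sign followed the dye, and 0.20, -0.67, -0.07 and -0.82 in H460R. Its difference of 0.33 (SE 0.08, limma adjusted p = 0.0228) passed the test but did not pass with the H460C replicates averaged into 1 sample (limma adjusted p = 0.0516), without H460C replicate 2 (limma adjusted p = 0.0562) or without H460R replicate 2 (limma adjusted p = 0.0507). Its arrays overlapped.

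Among the targets, HMOX1, which breaks down heme, gave 2.00, 1.81, 1.97 and 1.88 in H460C and 1.22, 1.25, 1.27 and 1.58 in H460R. The means were 1.92 in H460C and 1.33 ± 0.14 (SD, n = 2) in H460R, with no overlap between the populations. The ratios stayed above 1 on every array, yet Rank Products gave an FDR of 0.0843 in H460C and 0.129 in H460R, so neither passed. HMOX1 was higher in H460C than in H460R (difference 0.59, SE 0.08, limma adjusted p = 0.00262), but this did not pass on the Cy5 arrays alone (0.43, limma adjusted p = 0.0642). The HMOX1 spot was saturated in the H460C channel of 2 arrays.

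NQO1, a quinone reductase, showed the reverse pattern. Its H460C arrays gave -1.37, -1.15, -1.42 and -1.14, and its H460R arrays gave 0.17, 0.36 and 0.25, with the second Cy5 array left out by an outlier mark. The means were -1.27 in H460C (FDR 0.156, Rank Products) and 0.26 ± 0.01 (SD, n = 2) in H460R (FDR 0.979). The difference of -1.53 (SE 0.05, limma adjusted p = 7.56e-05), or 2.89-fold lower in H460C, was the largest among the members and the only one past a minimum difference of 1 by limma's treat test. UGDH, which makes the UDP-glucuronate used in glucuronidation, split in the same way with smaller ratios, -0.30, -0.09, -0.27 and -0.12 in H460C and 0.20, 0.33 and 0.18 in H460R, again without the second Cy5 array, but its difference of -0.41 shrank to -0.07 with median centring (limma adjusted p = 0.855). The ferritin chains, which store iron, were among the brightest probes of the array. FTL had a mean ratio of 0.02 in H460C and 0.04 ± 0.06 (SD, n = 2) in H460R. FTH1 had a mean of 0.36 in H460C and -0.15 ± 0.17 (SD, n = 2) in H460R, with arrays on both sides of 0 in each population, and its difference of 0.51 passed limma (adjusted p = 0.00919), but not on the Cy3 arrays alone (0.18, limma adjusted p = 0.294) or in the authors' table (0.32, limma adjusted p = 0.0662), and its second brightest probe gave -0.09. Its 5 probes had ratios of 0.17 to 0.71 in H460C and of -0.29 to 0.34 in H460R.

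Glutathione is made by glutamate-cysteine ligase, with GCLC as the catalytic and GCLM as the modifier subunit, followed by glutathione synthetase, GSS. GCLC gave 0.83, 0.67, 0.76 and 0.81 in H460C and 0.08, -0.08, 0.16 and 0.44 in H460R. GCLM gave 0.93, 0.69 and 0.72 in H460C, with the second Cy3 array left out, and 0.64, 0.30, 0.82 and 0.45 in H460R. Both subunits thus had a mean of 0.77 in H460C, a 1.70-fold ratio, but in H460R only GCLM was above 0 on every array, with a mean of 0.55 ± 0.12 (SD, n = 2) against 0.15 ± 0.21 (SD, n = 2) for GCLC. The difference between the populations passed for GCLC (0.62, SE 0.11, limma adjusted p = 0.00591), though not on the Cy5 arrays alone (0.56, limma adjusted p = 0.0795), and did not pass for GCLM (0.21, 95% interval 0.01 to 0.42, limma adjusted p = 0.07). Neither subunit was called against H460 by Rank Products. GSS was slightly below 0 in H460C, with a mean of -0.18, and slightly above in H460R, with 0.17 ± 0.02 (SD, n = 2). GSR, which reduces oxidized glutathione, was below 0 on every array, with means of -0.30 in H460C and -0.18 ± 0.04 (SD, n = 2) in H460R.

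Among the glutathione transferases, the differences between the populations that passed limma went one way. The ratio was higher in H460R for 6 of the 8 tested, GSTP1, GSTM3, GSTM4, GSTO1, MGST1 and MGST3, beside 29.2% of all tested genes, but with median centring GSTM3 changed sign and of these 6 only MGST1 and MGST3 still passed. GSTM3 and GSTO1 also did not pass in the authors' table. GSTA4 (means of 0.08 in H460C and -0.19 ± 0.06, SD, n = 2, in H460R) and MGST2 did not pass. MGST2, a membrane-bound transferase, gave 1.19, 1.02 and 1.08 in H460C, without the second Cy3 array, and 1.21, 0.90, 1.10 and 0.79 in H460R. It was therefore 2.13-fold and 2.00-fold over H460, and the 95% interval of the difference ran from -0.07 to 0.26. MGST1 gave 0.24, 0.70, 0.15 and 0.70 in H460C and 0.81, 1.05, 0.81 and 1.38 in H460R. Its H460R arrays all lay above its H460C arrays (difference -0.57, SE 0.08, limma adjusted p = 0.00253). MGST3 was on opposite sides of 0, with -0.45, -0.23, -0.48 and -0.33 in H460C and 0.21, 0.10, 0.16 and 0.29 in H460R. No array of one population reached those of the other.

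GSTP1, the transferase best known for handling platinum drugs, gave 0.69, -0.23, 0.61 and -0.09 in H460C and 1.15, 0.57, 0.89 and 0.26 in H460R. The H460C sign followed the dye, and the spot was saturated in the H460C channel of all 4 arrays and in the H460 channel of 2 of them. In H460R, where its own channel was saturated on 3 arrays, the mean was 0.72 ± 0.20 (SD, n = 2). With saturation on both sides, the size of the GSTP1 ratios and of their difference is uncertain. GSTO1 gave -0.39, -1.02 and -0.43 in H460C, without the first Cy3 array, and 0.23, 0.43, 0.22 and 0.07 in H460R, a difference of -0.80 (SE 0.13, limma adjusted p = 0.00446). The authors' processed table put GSTO1 at -0.16 in H460C and 0.20 in H460R, and there the difference did not pass (limma adjusted p = 0.0653). GSTM4 had means of -0.57 in H460C and -0.24 ± 0.11 (SD, n = 2) in H460R, and its difference no longer passed without H460C replicate 2 (-0.27, limma adjusted p = 0.0764) or without H460R replicate 1 (-0.26, limma adjusted p = 0.0874). GSTM3 was measured in H460C only on the arrays with H460C in Cy5, at -0.24 and -0.31, and its difference of -0.54 turned to 0.18 with median centring and was -0.04 in the authors' table. The GSTM genes are close in sequence, and a probe of one may also read another.

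In the thioredoxin system, TXN and its inhibitor TXNIP gave means of opposite sign. TXNIP, which binds thioredoxin and blocks it, gave -1.40, -1.15, -1.72 and -1.20 in H460R and -0.57, -1.03 and -0.59 in H460C, without the first Cy3 array. Rank Products called it repressed in H460R (FDR 0.0407), where it was 2.58-fold lower than in H460, but not with a normexp offset of 0, with the software's own log ratio, or on the Cy5 arrays alone. In H460C the mean of -0.69 did not pass (FDR 0.465). TXNIP was lower in H460R than in H460C (difference 0.67, SE 0.11, limma adjusted p = 0.00434). TXN, thioredoxin itself, gave 1.10, 1.07, 0.89 and 0.42 in H460R and 0.42, -0.01, 0.42 and 0.01 in H460C. Its mean in H460R was 0.87 ± 0.31 (SD, n = 2), the difference was -0.66 (SE 0.14, limma adjusted p = 0.0129), and another probe of TXN gave 1.04 in H460R. The TXN spot was saturated in 7 of the 16 channels. TXNRD1, the reductase that recharges thioredoxin, was near or below 0 in H460C (mean -0.18) and below 0 on every H460R array (mean -0.33 ± 0.02, SD, n = 2). SRXN1, sulfiredoxin, had means of 0.15 and 0.21 ± 0.17 (SD, n = 2).

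PRDX1, an abundant peroxiredoxin, gave 0.43, -0.97 and -1.04 in H460C, without the second Cy3 array, and 1.28, 0.63, 0.89 and -0.23 in H460R. Its arrays differed widely between the dyes, and on the H460R arrays its H460R channel was saturated on all 4 and its H460 channel on 2. On the H460C arrays, its H460C and H460 channels were each saturated on 2, so the size of its ratio is uncertain. H460C replicate 2 rests on the Cy5 array alone, where the dye does not cancel. With marked spots kept, PRDX1 had a mean of -0.38 in H460C in place of -0.65. Its difference of -1.30 (SE 0.31, limma adjusted p = 0.0175) ranged from -1.68 to -0.48 over the processing alternatives and did not pass without H460R replicate 1 (-0.98, limma adjusted p = 0.116).

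Enzymes that supply NADPH moved apart. PGD, of the oxidative pentose phosphate pathway, gave -0.76, -1.19, -0.82 and -1.21 in H460C and -0.21, -0.76, -0.31 and -0.83 in H460R. It was below 0 on every array, with a mean 2.00-fold lower than in H460 for H460C and a mean log2 ratio of -0.53 ± 0.06 (SD, n = 2) in H460R. ME1, cytosolic malic enzyme, gave 0.75, 0.97, 0.74 and 1.02 in H460C and 0.22, 0.31, 0.26 and 0.44 in H460R. It was above 0 on every array, and all H460C arrays lay above all H460R arrays (difference 0.56, SE 0.06, limma adjusted p = 0.00121). A dimmer second probe of ME1 gave 0.33 in H460C and -0.11 in H460R. Of the nonoxidative enzymes, TALDO1 had a mean of -0.40 in H460C and 0.15 ± 0.08 (SD, n = 2) in H460R, and its 4 probes all gave a lower value in H460C. TKT had -0.09 and -0.36 ± 0.09 (SD, n = 2), and its difference of 0.27 no longer passed with the H460C replicates averaged into 1 sample (limma adjusted p = 0.0601), nor without H460C replicate 2 (limma adjusted p = 0.155), H460R replicate 1 (limma adjusted p = 0.15) or H460R replicate 2 (limma adjusted p = 0.0608).

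The aldo-keto reductases, which reduce aldehydes and ketones, were led by AKR1C1. It gave 0.99, 0.91, 0.96 and 0.83 in H460C and 0.54, 0.42, 0.51 and 0.48 in H460R, which did not overlap (difference 0.44, SE 0.06, limma adjusted p = 0.00224). Its mean of 0.92 in H460C, 1.90-fold, was close to that of another probe (0.90), and the dimmest of its 3 probes gave 1.82 in H460C and 0.70 in H460R. AKR1C3 had means of 0.13 and -0.00 ± 0.01 (SD, n = 2), and AKR1B1 of -0.17 and 0.17 ± 0.09 (SD, n = 2). AKR1B10 had means of 0.10 and 0.40 ± 0.26 (SD, n = 2), a difference that did not pass, while its other probe gave 0.21 and 0.78 with a difference of -0.57 (limma adjusted p = 0.00313). The AKR1C genes are nearly identical in sequence, and the probes may not separate them.

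Peroxidases that use glutathione gave the largest ratio of all members. GPX3, a secreted selenium enzyme, gave 2.68, 1.26, 2.51 and 1.75 in H460C and 2.63, 1.67, 2.40 and 1.40 in H460R. The means were 2.05 in H460C and 2.02 ± 0.18 (SD, n = 2) in H460R. Rank Products called GPX3 induced in H460R (FDR 0.0194) and not in H460C (FDR 0.0686), and in H460C it passed with no filter on dim probes and on the Cy3 arrays alone. The call in H460R was lost with the software's own log ratio and on the Cy5 arrays alone. The difference between the populations was 0.02, with a 95% interval of -0.25 to 0.29. GPX3 is on the list of genes that the study chose on these samples, so its ratio is not independent evidence. GPX1 gave 0.35, 0.13 and 0.21 in H460C, without the second Cy3 array, and 0.92, 0.59, 0.89 and 0.52 in H460R, with no overlap (difference -0.51, SE 0.06, limma adjusted p = 0.00137), but with median centring its difference was -0.04 (limma adjusted p = 0.926). The GPX1 spot was saturated in 9 of the 16 channels.

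GPX4, which reduces lipid hydroperoxides and protects cells from ferroptosis, gave 0.05, -0.66, 0.07 and -0.69 in H460C and 0.87, 0.12, 0.79 and -0.11 in H460R. Its values differed between the dyes by 0.78 on average, more than its mean ratio in either population, but at each dye orientation H460R was above H460C (difference -0.72, SE 0.07, limma adjusted p = 0.000913). GPX2 was dim, with means of 0.01 and -0.17 ± 0.06 (SD, n = 2), and its H460 channel was not well above background on any H460C array. SOD1, superoxide dismutase, had means of 0.20 in H460C and 0.25 ± 0.15 (SD, n = 2) in H460R, and the 95% interval of its difference ran from -0.28 to 0.18.

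**Figure D2:**
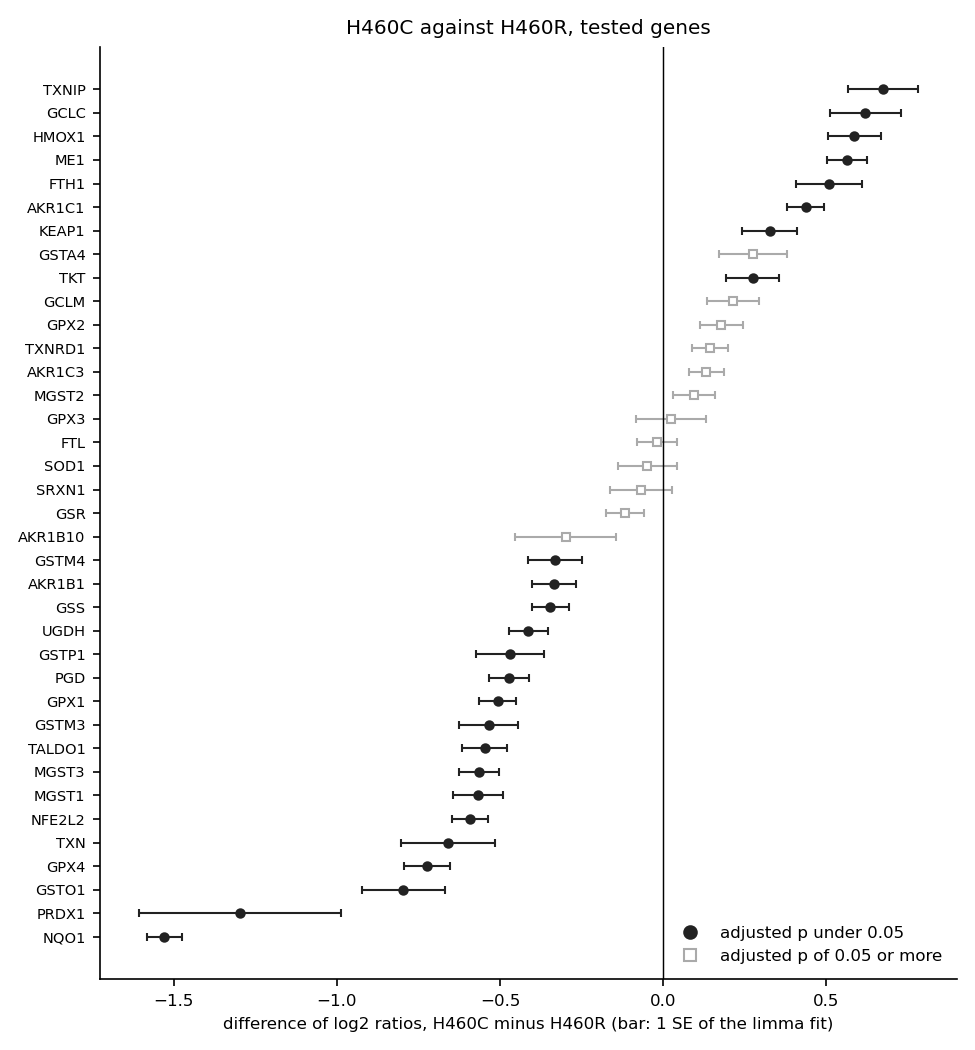
Difference of the log2 ratios, H460C minus H460R (x axis), for the 37 tested members in order of size (y axis). Bars are 1 SE of the limma fit, and filled circles mark an adjusted p under 0.05, with NQO1 lowest at -1.53 and TXNIP highest at 0.67.

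Many members were read by bright probes, and saturation limits their ratios. The median brightness of the members stood at the 97.1 percentile of all tested probes, and 18 of the 37 had a saturated channel on at least 1 array. Of the 16 channels, 11 were saturated for GSTP1, 10 for PRDX1, and 9 each for FTH1 and GPX1. FTL, AKR1B10 and SOD1 had 8 each, and TXN and GSTM3 had 7 each. Outlier marks left out at least 1 array for 12 members. The members with the largest dye difference were PRDX1 (1.05), GPX3 (1.04), FTH1 (0.83), GPX4 (0.78) and KEAP1 (0.76), where the value is the ratio with the studied cells in Cy3 minus that in Cy5. By contrast, the orientations gave nearly the same ratio for HMOX1 (-0.01), GCLC (-0.00) and AKR1C1 (0.09). The mean of a dye-swap pair cancels such a difference only where both arrays were kept.

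**Figure D3:**
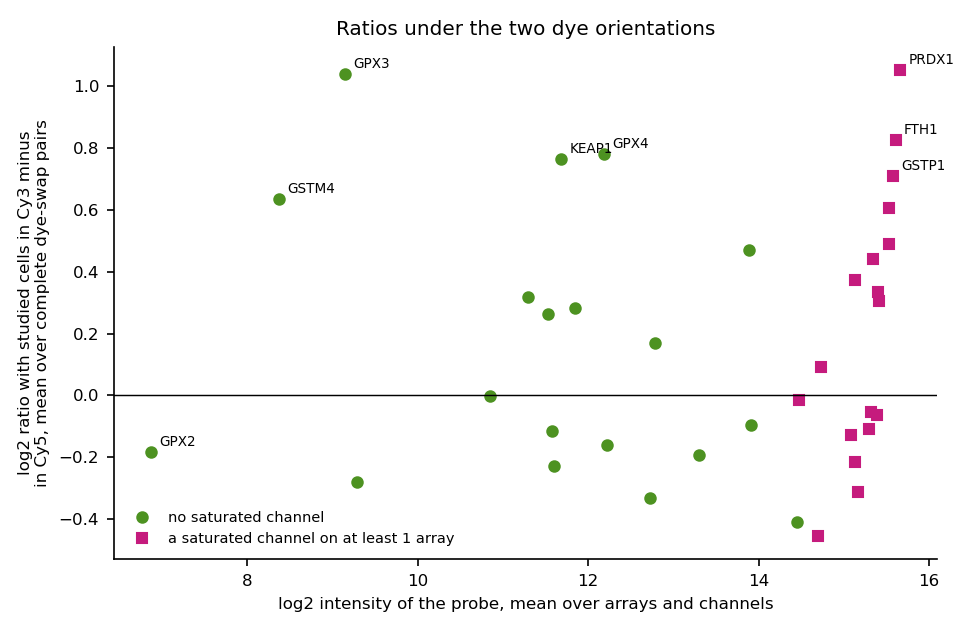
Difference between the dye orientations (y axis, log2 ratio with the studied cells in Cy3 minus in Cy5, mean over complete dye-swap pairs) against the log2 intensity of the probe (x axis), for the 37 tested members. Squares mark members with a saturated channel, which lie at the bright end, and PRDX1 and GPX3 have the largest values, 1.05 and 1.04.

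A wider list of 83 genes of the same pathways was read in the same way. It was chosen with earlier results of these data known, so its counts are not independent support for those of the members. Of these, 82 were on the array and 77 were tested. Rank Products called UGT1A6 induced in H460C and CHAC1 and TRIM16 repressed in H460R. By limma, 19 of the 77 were higher in H460C and 34 were higher in H460R, or 24.7% and 44.2%, beside 30.9% and 29.2% of all tested genes. Among those called, TXNRD2 and GSTA2 passed the filter on dim probes only through the population where they were higher. The medians of the 77 genes were -0.13 in H460C and 0.04 in H460R. These values come from loess normalization. With median centring the members were called 8 on each side, and the wider list was not given under that setting.

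UGT1A6, a glucuronosyltransferase, gave 3.19, 2.83, 3.28 and 3.80 in H460C and -0.41, -0.08, -0.36 and -0.09 in H460R. The populations were thus far apart, and UGT1A6 was 9.70-fold over H460 in H460C (FDR 0.0072). UGT1A genes share exons, so the probe may read other genes of the cluster. CHAC1, which degrades glutathione, gave -1.18, -1.11 and -1.21 in H460C, without the first Cy5 array, and -1.40, -1.99, -1.61 and -1.60 in H460R. It was 3.14-fold lower than in H460 in H460R (FDR 0.0153). TRIM16, a ubiquitin ligase linked to NRF2, had means of -0.38 in H460C and -1.42 ± 0.05 (SD, n = 2) in H460R (FDR 0.0282).

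The cystine carrier SLC7A11 supplies the cysteine of glutathione and is a known NRF2 target. It was not tested, because outlier marks left out 3 of its 4 H460C arrays. With marked spots kept, it gave -0.17, -0.40, -0.05 and -0.41 in H460C and 1.25, 0.85, 1.25 and 0.75 in H460R, without overlap. Mitochondrial superoxide dismutase SOD2, which is on the study's list, had a mean of 1.89 in H460C (FDR 0.0888) and 0.44 ± 0.02 (SD, n = 2) in H460R, and extracellular SOD3 one of 0.43 and 1.43 ± 0.28 (SD, n = 2). Of the regulators, MAFK, a small MAF partner of NRF2, had means of 0.87 and 1.58 ± 0.10 (SD, n = 2). SESN1, sestrin, had means of 0.87 and 1.47 ± 0.36 (SD, n = 2). ME3, mitochondrial malic enzyme, had -1.46 in H460C and -0.30 in H460R, and the efflux pump ABCC3 had -1.29 and -0.18. None of these 6 genes passed Rank Products. SOD2 (1.45), ME3 (-1.16) and ABCC3 (-1.11) followed UGT1A6 (3.51) in the size of the difference between the populations.

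The drug efflux pumps ABCC1, ABCC2, ABCC3 and ABCG2 all stood above H460C in H460R by limma with loess, beside 29.2% of all tested genes. Their medians were -0.23 in H460C and 0.40 in H460R. The other selenoproteins had medians of 0.42 and 0.49, with 10 of 13 called higher than H460 in H460C and 9 of 13 in H460R by limma, beside 37.5% and 36% of all tested genes. The medians of the other NADPH enzymes were -0.30 in both populations. Further genes with a positive difference by limma, higher in H460C, were CUL3 and RBX1 among the regulators, GGCT, CHAC1 and GSTM5 in glutathione handling, TXNRD2, the NADPH enzymes RPIA, RPE, IDH1, IDH2 and ME2, and TRIM16, SELENOP, SELENOW, SELENOS, SELENOI and MSRB1. Those higher in H460R included MAFK and SQSTM1, GGT1, GLRX, GSTK1, GSTM2, GSTA2, GSTT1, GSTZ1 and GSTO2, TXN2, PRDX6, SESN1, SESN3 and MSRA, NNT, AKR1A1, CBR1, CBR3, NQO2, EPHX1, BLVRA and CYP4F11, SOD3 and GPX8, and SELENOM, SELENOF and SEPHS2. GSTA2 was dim and passed the filter only through H460R, and its H460C channel was well above background on 0 arrays. TXNRD2, also dim, passed only through H460C. The differences of these genes are therefore not independent of the filter.

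**Figure D4:**
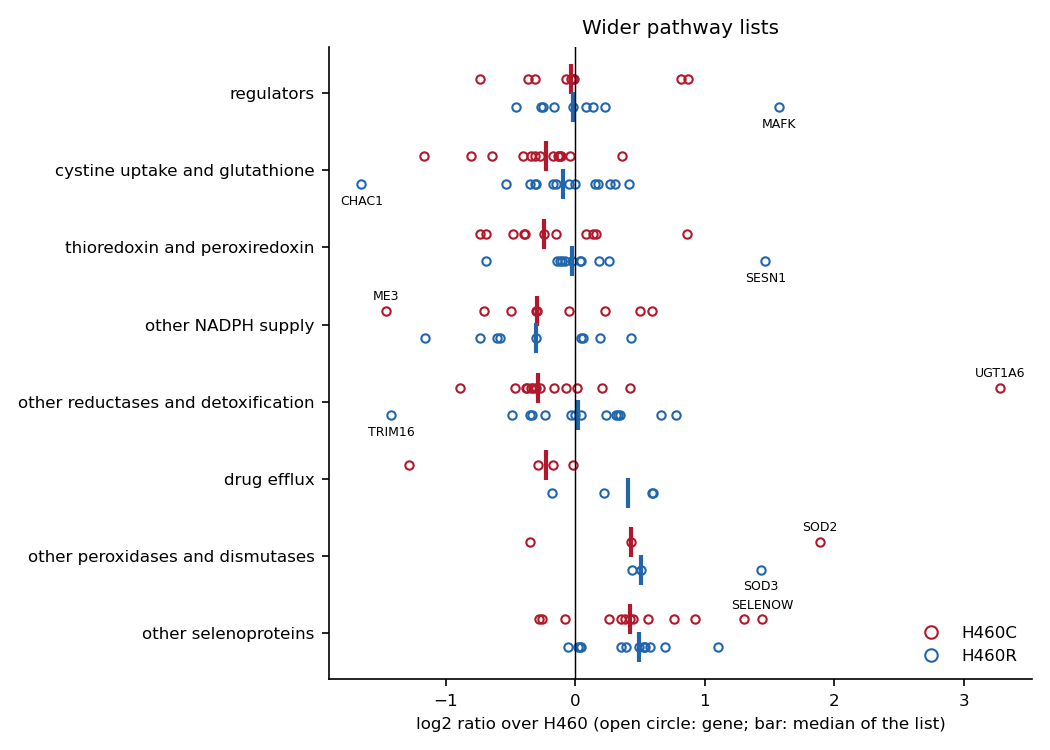
Log2 ratio over H460 (x axis) of the 77 tested genes, each an open circle, by pathway list (y axis) in H460C, red, and H460R, blue, with a bar at the median of each list. UGT1A6 at 3.28 in H460C stands apart, and the median of the drug efflux list is -0.23 in H460C and 0.40 in H460R.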

How the data were processed

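RNA of H460C and H460R cells was measured against H460 RNA on 8 dual-color Agilent arrays. The authors scanned the arrays and ran Agilent's Feature Extraction program. Work started from deposited intensity values, the unnormalized median of each spot and that of the background around it. The deposited log10 ratio served as an alternative (on 1 array it is a score without its decimal point, divided here by 10 raised to 9), as did the authors' processed table of log2 ratios. Deposited marks of other kinds (outlier, saturated, well above background, each 0 or 1) were used as given. Per the labels, limma was among the authors' tools.

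Here, background was corrected with normexp (offset 50), outlier-marked spots were dropped, and loess was run within arrays. The 43376 spots gave 41000 probes. Probes passed when a share of 0.5 or more of their spots exceeded background well in every channel of 1 population, which kept 26046 probes. All ratios were present for 26014. Dye-swapped arrays of the same sample were averaged. Of 25868 RefSeq-named probes, 23958 matched a symbol of the GRCh38.p14 table. A gene was read at its brightest probe.

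Rank Products (exact, Benjamini-Hochberg, FDR 0.05, each direction) tested the ratios to H460. Because H460 was 1 RNA sample, its own variation does not enter this test. A two-sided limma fit (2 residual and 3.27 prior degrees of freedom) tested H460C minus H460R. Adjustment ran over all probes. Tests took both H460C ratios as planned. Scripts were tested on simulated data. Software was limma 3.58.1 in R 4.3.3, with data.table (version 1.17.8). The number of arrays limits the precision. The members, the wider lists and the tests were chosen with earlier results of these data known. All tested members are named, and of the wider lists the genes past a test and the 2 with the largest ratio in each direction, except for an item that is not reported here. Start-site windows came from RefSeq (GRCh38.p14).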

Additional observations from a re-analysis of the deposited data

Results flagged for a closer look

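For 6 of the 37 members, every measured array of H460C lay below 0 and every measured array of H460R above 0, and the difference of the log2 ratios, H460C minus H460R, passed limma. This held for 6.92% of all tested genes, and the opposite arrangement for 5.24% of them and for 0 members. The difference was -1.53 for NQO1 (limma adjusted p = 7.56e-05), -0.80 for GSTO1 (limma adjusted p = 0.00446) and -0.56 for MGST3 (limma adjusted p = 0.0012). It was -0.54 for GSTM3 (limma adjusted p = 0.0053), -0.41 for UGDH (limma adjusted p = 0.00315) and -0.35 for GSS (limma adjusted p = 0.00461). With median centring the UGDH difference was -0.07 (limma adjusted p = 0.855), and the GSTO1 difference was -0.43 and did not pass (limma adjusted p = 0.0757). The NQO1 difference lay between -1.60 and -1.19 over the processing alternatives. The GSTM3 difference rests on the H460C arrays of 1 dye orientation, and 2 further GSTM3 probes gave differences of -0.11 and 0.47.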

How the results depend on the processing

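Rank Products called no member in H460C and 2 in H460R. In H460R it called 1 member with a normexp offset of 0 and 1 on the Cy3 arrays, 0 with the software's log ratio and 0 on the Cy5 arrays. In H460C it called 1 member with no filter on dim probes and 1 on the Cy3 arrays. In place of Rank Products, limma called 29 members in H460C and 30 in H460R, where 73% and 69.6% of all genes were called. Against a minimum log2 ratio of 1 it called 3 in H460C (HMOX1, GPX3 and NQO1) and 1 in H460R (GPX3). There 5.22% and 1.57% of all genes were called. With 1 replicate left out, a population holds 1 sample, so counts of calls under that setting are not given. For H460C against H460R, 25 members passed, where 60% of all genes were called. The count was 16 with median centring, where 33.5% of all genes were called. On the Cy5 arrays it was 16 (6 higher in H460C and 10 higher in H460R), where 38.3% of all genes were called. Against a minimum difference of 1 it was 1 (NQO1), where 4.28% of all genes were called. GSTM3 reversed to 0.18 with median centring. The cause was not tested. Apart from the fits with 1 replicate left out, the other settings gave 23 to 27. Among them were 23 of the 28 members tested on the Cy3 arrays, where 65.5% of all genes were called. Where it was computed for these settings, the share of all genes called ran from 45% to 68%. Same-numbered replicates correlated at 0.21 in their deviations, which with 2 pairs does not establish a pairing. With the replicate block 27 members passed, where 63.9% of all genes were called. Keeping outlier-marked spots, an alternative added after seeing the data, gave 27, where 62% of all genes were called. Saturation of bright spots and few arrays limit these ratios.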
